A study of Mus musculus with 6 samples.

Results

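The procollagen proteinases and their enhancers are 8 genes of the 53819 listed in the count table, taken by symbol: the N-proteinases *Adamts2*, *Adamts3* and *Adamts14*, the C-proteinases *Bmp1*, *Tll1* and *Tll2*, and the enhancers *Pcolce* and *Pcolce2*. All 8 were among the 17496 genes that passed a filter on low counts. They were measured by bulk RNA-seq in flexor digitorum longus (FDL) tendons of the mouse hind paw, harvested 28 days after transection and repair, with 3 tendons in each of 2 genotypes and 1 tendon per library. DTR mice (Scx-Cre+; DTR F/+) carry a diphtheria toxin receptor that is switched on in cells with a history of *Scx* expression, and WT mice (Scx-Cre-; DTR F/+) carry the same silent receptor without Cre. Both genotypes were operated on at 10 to 12 weeks of age, and both received 5 daily injections of 100 ng diphtheria toxin (DT) at days 14 to 18 after surgery, so that the groups share surgery and toxin and differ in Cre. The titles of the samples date the harvest from depletion, whereas the methods date it from surgery. Male and female mice were used. The Scx-Cre driver is not inducible and marks the whole *Scx* lineage, and the study had no reporter for how many cells were lost. In bulk tissue, fewer cells of a type and less RNA per cell cannot be told apart.

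Fibrillar procollagens leave the cell with a propeptide at each end. The N-propeptide is cut off by ADAMTS2, ADAMTS3 and ADAMTS14, and the C-propeptide by BMP1 and the tolloid-like proteinases, after which the trimmed molecules assemble into fibrils. The procollagen C-proteinase enhancers bind the C-propeptide and speed its removal without cutting it themselves, and in tendon this processing precedes the growth of collagen I fibrils.

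The 6 proteinases are zinc metalloproteinases of 2 families that share a short zinc-binding stretch, and the coding sequence of that stretch is shown because it sets the N-proteinases and the C-proteinases side by side. The sequences are of 11 codons (33 bases) each, from GENCODE vM21 transcripts on GRCm38, with the codons of the 3 zinc-binding histidines in capitals.
Adamts2: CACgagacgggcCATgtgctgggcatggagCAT
Adamts3: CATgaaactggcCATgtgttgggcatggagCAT
Adamts14: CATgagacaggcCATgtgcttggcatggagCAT
Bmp1: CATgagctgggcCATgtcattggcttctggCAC
Tll1: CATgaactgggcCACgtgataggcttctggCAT
Tll2: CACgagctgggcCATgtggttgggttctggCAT
All 6 stretches lie in coding exons. Those of the N-proteinases cross from exon 7 to exon 8 in *Adamts2* (chr11:50775403-50776134, plus strand) and *Adamts14* (chr10:61225465-61227123, minus strand) and from exon 8 to exon 9 in *Adamts3* (chr5:89707433-89707818, minus strand). Those of the C-proteinases lie within 1 exon, which is exon 5 of *Bmp1* (chr14:70508060-70508092, minus strand) and exon 6 of *Tll1* (chr8:64101898-64101930, minus strand) and of *Tll2* (chr19:41130541-41130573, minus strand). *Adamts2* and *Adamts14* shared 30 of the 33 bases (90.9%), and *Adamts3* shared 29 with each of them. *Bmp1* shared 28 bases (84.8%) with *Tll1* and with *Tll2*, whereas pairs across the 2 families shared 21 to 24. The longest coding sequences had 1204 to 1213 codons in the N-proteinases and 991 to 1013 in the C-proteinases.

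The libraries held 42744138 to 48854310 counts on genes, of which the 8 genes took 0.142% to 0.176%. The tendon markers *Scx* and *Tnmd* were present in every library. *Scx* itself had 2169 to 2948 raw counts in WT and 3373 to 3562 in DTR libraries, and the receptor transgene was not analysed here. DTR replicate 2 differed from the other DTR libraries in its muscle transcripts. The 30 listed skeletal muscle genes, none of them at 0, took 2.46% to 3.37% of the counts in WT libraries and 0.439%, 2.99% and 0.824% in DTR replicates 1 to 3. Female libraries by *Xist* were WT replicate 2 and DTR replicates 2 and 3. Values are given below as normalized counts, which are counts scaled by TMM (edgeR's trimmed mean scaling factor) to the mean library size, and as log2 fold changes of DTR over WT from edgeR's quasi-likelihood test, with p-values adjusted by Benjamini-Hochberg over all 17496 genes.

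*Adamts14*, an N-proteinase related to ADAMTS2, showed the clearest separation of the 8 genes. It gave 777, 945 and 738 normalized counts for WT replicates 1, 2 and 3, against 1192, 1106 and 1216 for DTR replicates 1, 2 and 3. Every DTR library lay above every WT library, and the gap from the highest WT to the lowest DTR library was between the female libraries WT replicate 2 and DTR replicate 2. The means were 820 ± 110 in WT against 1172 ± 57.7 in DTR tendons (SD, n = 3 each). In edgeR's fit the log2 fold change was 0.51 (standard error 0.12, 95% interval 0.24 to 0.79) with an unadjusted p = 0.00252 and a Benjamini-Hochberg adjusted p = 0.277, which did not pass 0.05. DESeq2 gave an adjusted p = 0.0295 and called it. The study drew this gene among its upregulated matrix genes from the same libraries, so the DESeq2 call is not independent evidence. Over the 17 alternatives its log2 fold change stayed between 0.44 and 0.63 and its adjusted p between 0.0295 and 0.716.

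*Adamts3*, which cuts procollagen in cartilage and also processes VEGF-C in lymphatic development, was the other N-proteinase without overlap. It gave 414, 392 and 257 normalized counts for the WT replicates in order, against 710, 440 and 508 for the DTR replicates. WT replicate 3 was low and DTR replicate 1 high, while WT replicate 1 and DTR replicate 2 were close to each other. It differed by 0.64 on the log2 scale (edgeR: standard error 0.24, unadjusted p = 0.0316, adjusted p = 0.429), with a 95% interval of 0.07 to 1.21. Without DTR replicate 1 it was 0.42, and it was 0.34 once the mean log2 CPM of the 30 muscle genes entered as a covariate. That muscle level was 9.50, 9.32 and 9.05 for the WT replicates and 6.66, 9.34 and 7.31 for the DTR replicates. Only DTR replicate 2 lay in the WT range, so fits with this covariate cannot cleanly separate muscle level from genotype.

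*Adamts2*, the main procollagen I N-proteinase, whose loss causes fragile skin in dermatosparaxis, gave 16101, 16276 and 18104 normalized counts for the WT replicates in order, against 22033, 17057 and 17486 for the DTR replicates. DTR replicate 1 was high, and the other DTR libraries lay inside the WT range. DTR over WT was 0.16 on the log2 scale (edgeR: standard error 0.13, adjusted p = 0.648). The 95% interval of -0.14 to 0.47 reaches changes from a small decrease to 1 about as large as that fitted for *Adamts14*. Without DTR replicate 1 the log2 fold change was 0.0336, and with the muscle level as a covariate -0.0189.

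**Figure D1:**
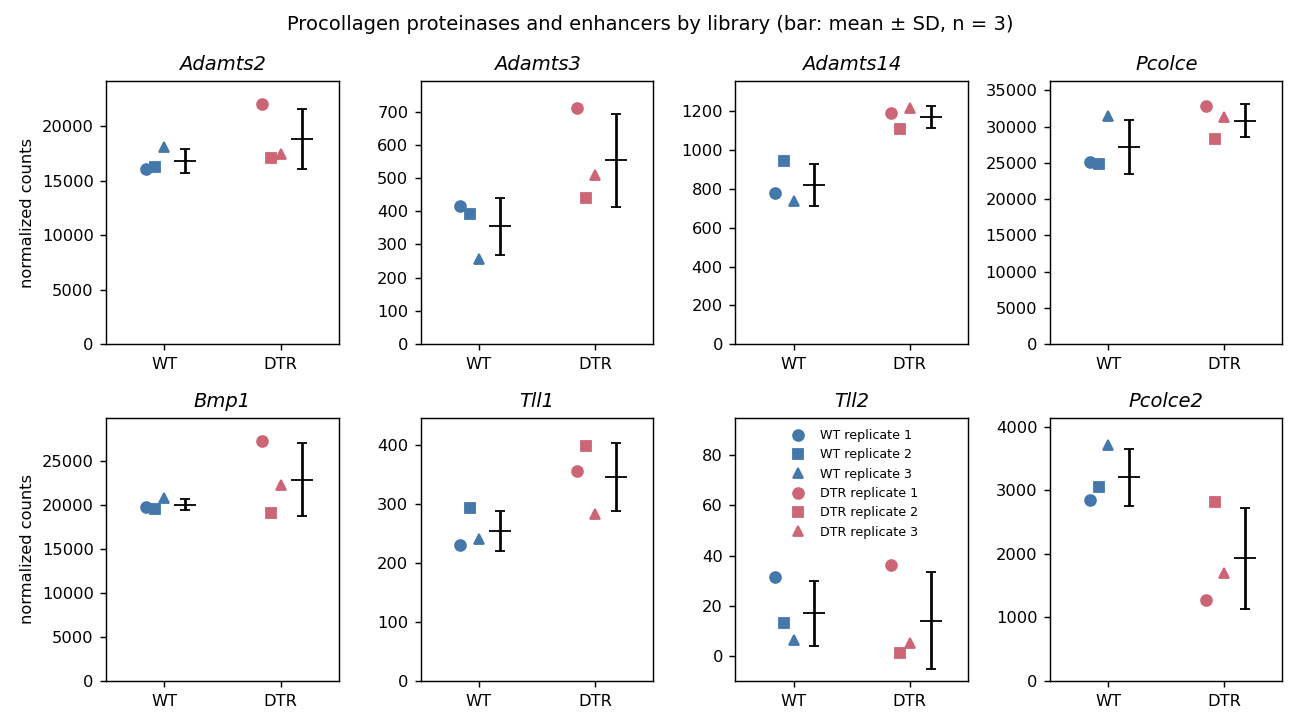
Normalized counts (vertical axes, each on its own scale, which for Tll2 starts below 0) of the 8 genes in the 3 WT and 3 DTR libraries, with 1 point per library and a bar for mean ± SD (n = 3). The DTR points lie above all WT points for Adamts3 (440 to 710 against 257 to 414) and Adamts14 (1106 to 1216 against 738 to 945) and below them for Pcolce2 (1276 to 2815 against 2841 to 3704), and the groups overlap for the other genes.

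*Bmp1*, which encodes both BMP1 and the longer mammalian tolloid through alternative splicing that gene counts cannot separate, was, like *Adamts2*, highest in DTR replicate 1. It gave 19740, 19609 and 20845 normalized counts for the WT replicates in order, against 27291, 19109 and 22290 for the DTR replicates. The WT libraries were close to each other, whereas the DTR libraries ran from below the lowest to far above the highest of them. DTR over WT was 0.19 on the log2 scale (edgeR: standard error 0.14, adjusted p = 0.634), with a 95% interval of -0.14 to 0.53. It was 0.0410 without DTR replicate 1 and -0.085 with the muscle level as a covariate.

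*Tll1*, a tolloid-like proteinase needed for heart septation in the embryo, gave 231, 293 and 240 normalized counts for the WT replicates in order, against 356, 399 and 284 for the DTR replicates. The groups overlapped by a small margin, since DTR replicate 3 was below WT replicate 2. It differed by 0.44 on the log2 scale (edgeR: standard error 0.19, unadjusted p = 0.0493, adjusted p = 0.454), with a 95% interval that began at 0.00184. Unlike the abundant genes, it was highest in DTR replicate 2, and with the muscle level as a covariate it was at 0.59.

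*Tll2*, the other tolloid-like gene, was near the limit of detection. Its raw counts were 31, 14 and 6 for the WT replicates and 35, 1 and 5 for the DTR replicates. The 95% Poisson intervals, which cover counting error only, were 21.1 to 44.0 for the 31 counts, 24.4 to 48.7 for the 35 counts and 0.0253 to 5.57 for the single count, so the libraries differed beyond counting error within each genotype. The high libraries were WT replicate 1 and DTR replicate 1. Its log2 fold change of -0.28 had a standard error of 1.13 and a 95% interval with an upper bound of 2.44, so a several-fold difference in either direction would not have been detectable.

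*Pcolce*, which encodes the enhancer PCPE-1, gave 25125, 24920 and 31517 normalized counts for the WT replicates in order, against 32871, 28357 and 31274 for the DTR replicates. WT replicate 3 lay among the DTR libraries, and the other WT libraries lay below them. DTR over WT was 0.18 on the log2 scale (edgeR: standard error 0.14, adjusted p = 0.629). Its 95% interval was -0.13 to 0.50. Without WT replicate 3 it was 0.30, and with the muscle level as a covariate 0.0367. Of its annotated exon bases, 112 (2.93%) are shared with *Fbxo24* and with the antisense gene *Gm36266*. Both of these had 48 to 84 raw counts per library, which is small beside *Pcolce*.

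*Pcolce2*, which encodes the related enhancer PCPE-2, was the 1 gene of the 8 with every DTR library below every WT library. It gave 2841, 3055 and 3704 normalized counts for the WT replicates in order, against 1276, 2815 and 1694 for the DTR replicates. DTR replicate 2 was only just below WT replicate 1, while DTR replicates 1 and 3 were far below. The means were 3200 ± 450 in WT against 1928 ± 796 in DTR tendons (SD, n = 3 each). The fitted log2 fold change was -0.73, standard error 0.31, 95% interval -1.49 to 0.0267 (edgeR: unadjusted p = 0.0561, adjusted p = 0.464). DESeq2 gave an adjusted p = 0.0893. Without DTR replicate 2 the log2 fold change was -1.11 and edgeR called the gene lower (adjusted p = 0.0242). That fit called 3.02% of all genes in either direction, 441 of 17998 lower and 103 higher. Its DTR libraries had muscle levels of 6.66 and 7.31 against 9.05 to 9.50 in WT, so genotype and muscle level cannot be told apart there. With the muscle level as a covariate in all 6 libraries, the log2 fold change of *Pcolce2* was -0.25. Over all 17 alternatives its adjusted p ran from 0.0242 to 0.855.

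**Figure D2:**
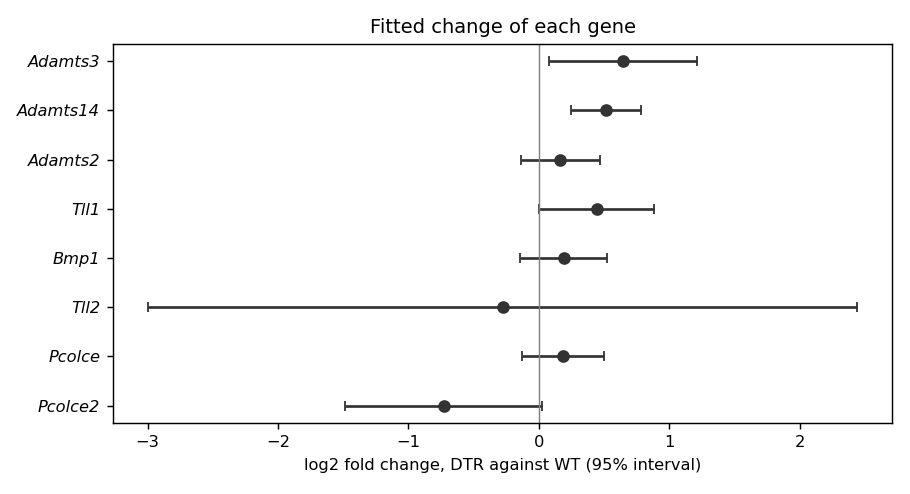
Log2 fold change of DTR over WT (horizontal axis) with its 95% interval for each of the 8 genes, from edgeR's quasi-likelihood fit of 3 against 3 libraries. The intervals of Adamts3, Adamts14 and Tll1 lie above 0, that of Pcolce2 reaches 0.0267, and that of Tll2, the widest, reaches 2.44.

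By the test over all genes, 0 of the 8 genes were called by edgeR at an adjusted p under 0.05, as were 0% of all genes tested. DESeq2 called 1 of the 8, *Adamts14*, where it called 2.65% of all genes (1.12% higher and 1.53% lower). By sign alone, 6 of the 8 were fitted higher in DTR tendons, where 51.5% of all genes were. At an unadjusted p under 0.05 in edgeR's test, 3 of the 8 were higher (*Adamts3*, *Adamts14* and *Tll1*), where 5.52% of all genes were, and none was lower, where 5.45% were. The groups did not overlap in 2 of the 8 with DTR above and in 1 with DTR below, where the shares over all genes were 8.96% and 7.85%. With 8 genes these counts describe the set and were not tested.

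Levels of different genes were compared per kilobase of annotated exon. Averaged over the 6 libraries, *Pcolce* was highest with 7588 normalized counts per kilobase, followed by *Bmp1* with 2422, *Adamts2* with 1911, *Pcolce2* with 554, *Adamts14* with 192, *Adamts3* with 83.5, *Tll1* with 38.7 and *Tll2* with 3.28. The neighbours *Bmp1* and *Adamts2* overlapped in DTR tendons, with 2581 ± 465 and 2020 ± 295 normalized counts per kilobase (SD, n = 3 each), but not in WT tendons, with 2262 ± 76.6 and 1802 ± 119 (SD, n = 3 each). Within each of the 6 libraries, *Bmp1* was above *Adamts2*. The other neighbours in this order did not overlap within a genotype. Per kilobase of the longest coding transcript the order was the same, with 17842 for *Pcolce*, 5831 for *Bmp1* and 2456 for *Adamts2*. *Adamts2* thus made up 88.9% ± 2.0 of the N-proteinase level per kilobase of exon in WT and 86.0% ± 0.831 in DTR tendons (SD, n = 3 each). *Adamts14* made up 7.82% ± 1.2 and 9.70% ± 1.1, and *Adamts3* 3.25% ± 0.902 and 4.30% ± 0.495. *Bmp1* made up 97.7% to 98.6% of the C-proteinase level in every library. The enhancer level was 8.87% ± 0.327 *Pcolce2* in WT and 4.99% ± 2.32 in DTR tendons. Such shares depend on the length used. In WT tendons *Pcolce2* was at 692 beside 7111 for *Pcolce* per kilobase of exon, but at 721 beside 16720 per kilobase of the longest coding transcript.

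Ratios of 2 genes within a library do not depend on how the libraries are scaled. A total of 7 ratios of raw counts were compared with an exact two-sided permutation test, which with 3 against 3 libraries cannot go below p = 0.1, and adjusted over the 7. The count of *Pcolce2* was 11.3%, 12.3% and 11.8% of that of *Pcolce* for the WT replicates and 3.88%, 9.93% and 5.42% for the DTR replicates. The WT libraries agreed closely, and each DTR library was lower. The log2 ratio was lower in DTR tendons, by a difference of -0.99 (exact permutation p = 0.1, adjusted p = 0.35). *Adamts3* over *Adamts2* did not overlap either, with 2.57%, 2.41% and 1.42% in WT and 3.22%, 2.58% and 2.90% in DTR replicates 1 to 3, a difference of 0.49 in log2 ratio (exact permutation p = 0.1, adjusted p = 0.35). WT replicate 3 was far below the others, and without it the difference was 0.22. *Adamts14* over *Adamts2* overlapped, with 4.83%, 5.81% and 4.08% in WT and 5.41%, 6.49% and 6.96% in DTR (difference 0.36, exact permutation p = 0.2, adjusted p = 0.467). *Tll1* over *Bmp1* overlapped as well (difference 0.26, exact permutation p = 0.5, adjusted p = 0.583), and without DTR replicate 2 the difference was 0.0288.

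The remaining ratios set the abundant processing genes against *Col1a1*, which encodes the alpha 1 chain of their main substrate. *Adamts2* was at 3.54%, 3.28% and 3.43% of the *Col1a1* count in WT and at 2.87%, 3.92% and 2.70% in DTR replicates 1 to 3. DTR replicate 2 was above the WT range and the other DTR libraries below it. Against *Col1a1*, *Bmp1* and *Pcolce* were likewise highest of the 6 libraries in DTR replicate 2 and lowest in DTR replicates 1 and 3. The differences in log2 ratio were -0.13 for *Adamts2*, -0.11 for *Bmp1* and -0.10 for *Pcolce* (exact permutation p = 0.4, 0.5 and 0.7, adjusted p = 0.583, 0.583 and 0.7), within the spread of 0.29, 0.19 and 0.31 (SD, n = 3) among DTR libraries. Their size depended on single libraries. Without DTR replicate 2 the difference was -0.30 for *Adamts2* and -0.22 for *Bmp1* (exact permutation p = 0.1 for each, the smallest possible with 3 against 2 libraries), and without DTR replicate 3 it was -0.0263 and -0.0453. For *Pcolce* it was -0.27 without DTR replicate 2 and 0.0288 without DTR replicate 1.

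**Figure D3:**
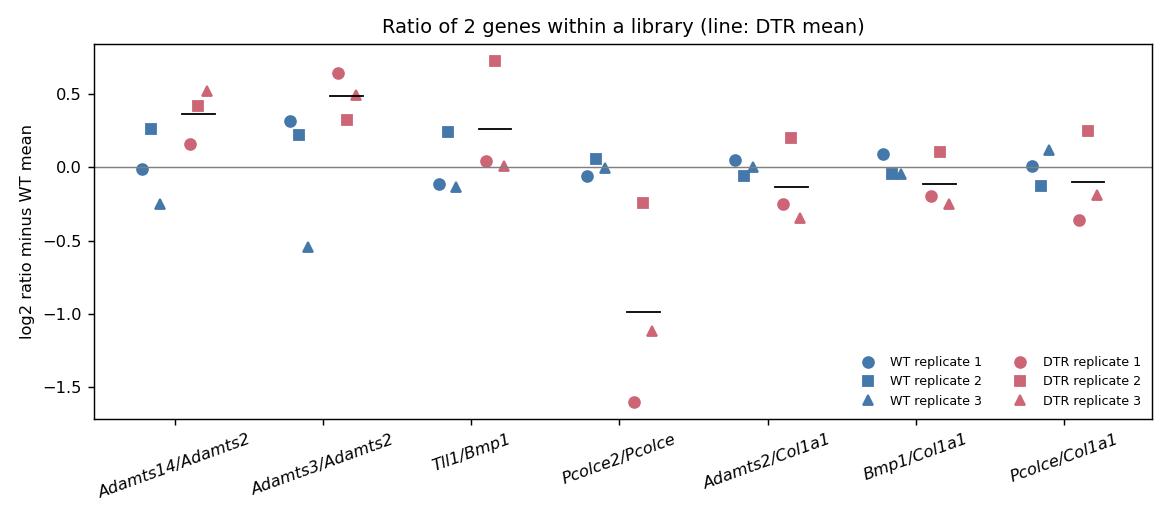
Log2 ratio of raw counts of 2 genes within each library, with the WT mean of that ratio set to 0 (vertical axis), for the 7 ratios (horizontal axis), with 1 point per library and a line at the DTR mean. Pcolce2 over Pcolce is lower in each DTR library (mean difference -0.99), and the 3 ratios to Col1a1 overlap, with DTR replicate 2 on the other side of 0 from DTR replicates 1 and 3.

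The pattern of the 8 genes over the 6 libraries was described by the root mean square (RMS) difference between their log2 CPM, each centred on its mean. *Adamts2* and *Bmp1* were the most alike of the 28 pairs, with a difference of 0.0633, and 0.536% of 13239 other genes with at least 100 normalized counts lay closer to *Adamts2* than *Bmp1* did. *Pcolce* was at 0.0967 from *Adamts2*. *Tll2*, with few counts, lay farthest, at 1.51 or more from each of the others, and *Pcolce2* was at 0.63 or more. For the 2 genes with the widest range, the 3 nearest of the 13239 genes were named. The nearest to *Pcolce2* was *Vit*, which encodes the matrix protein vitrin, at 0.0394, followed by *Ltc4s*, the leukotriene C4 synthase gene, at 0.0919 and *Gabra3*, a GABA receptor subunit gene, at 0.0943, where the median of all candidates was 0.56. *Vit* gave 1655, 1752 and 2183 normalized counts for the WT replicates in order, against 794, 1680 and 977 for the DTR replicates, so it was low in the same DTR libraries as *Pcolce2* (log2 fold change -0.70, standard error 0.30, edgeR adjusted p = 0.464). The nearest to *Tll2* were *Igfbp2* at 0.64, *Vat1l* at 0.66 and *Mmp10* at 0.73, a looser likeness that rests on few *Tll2* counts.

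The skeletal muscle share given above was lowest in DTR replicates 1 and 3, and all 30 of its genes were fitted lower in DTR tendons. None of the 30 had an unadjusted p under 0.05 in edgeR's test or was called by DESeq2. In 6 of them every DTR library lay below every WT library. Of 8 adipocyte genes, all were fitted lower and 7 had an unadjusted p under 0.05, and in these 7 every DTR library lay below every WT library. Over all genes, 5.45% were lower at an unadjusted p under 0.05, and 7.85% had every DTR library below every WT library. At an adjusted p under 0.05 edgeR called 0 of the 8, and DESeq2 called 5 lower, where it called 1.53% of all genes lower. Over the 8 genes the mean log2 CPM was 1.38, 2.05 and 2.56 for the WT replicates and -0.95, 0.61 and -0.53 for the DTR replicates. This mean rests partly on genes near 0 counts, such as *Lep* with 0, 3.83 and 0 and *Cidec* with 1.03, 11.5 and 2.06 normalized counts for the DTR replicates. The summed level, 0.0126% to 0.0219% of counts in WT and 0.00929% to 0.0151% in DTR libraries, overlapped, and most of it was *Fabp4*, the other gene of the list. *Adipoq*, which encodes adiponectin, had 95, 199 and 263 raw counts in WT and 17, 65 and 26 in DTR replicates 1 to 3. A list of 8 markers of adventitial fibroblasts did not follow, with 6 genes fitted higher and 2 lower. The highest were *Dpp4* at 0.44 and *Pi16* at 0.35, and the 2 lower ones were *Ly6a* at -0.0486 and *Ly6c1* at -0.32. Its summed level was 0.807% to 0.940% in WT and 0.783% to 1.03% in DTR libraries. Most of that sum was *Dcn*, which is also on the list of tendon cell genes. The part of the adipocyte transcripts in the *Pcolce2* values was not tested.

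**Figure D4:**
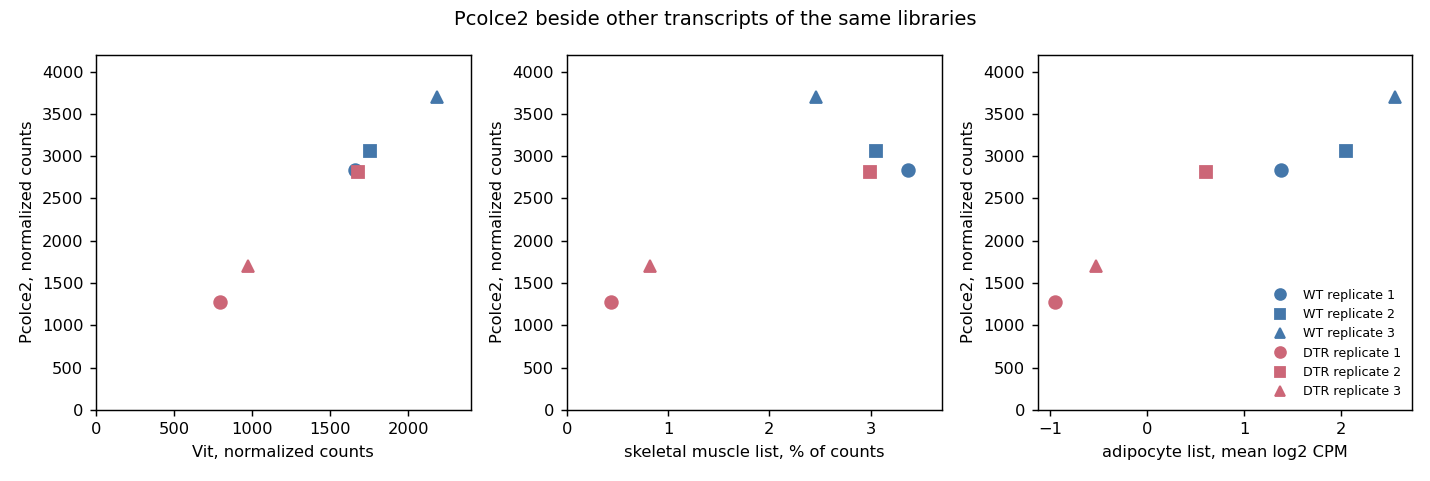
Normalized counts of Pcolce2 (vertical axis) against normalized counts of Vit, the percentage of counts on 30 skeletal muscle genes and the mean log2 CPM of 8 adipocyte genes (horizontal axes), with 1 point per library. DTR replicates 1 and 3 are lowest on every axis, and DTR replicate 2 lies near WT replicate 1 for Vit and near WT replicate 2 for muscle.

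The remaining genes of procollagen processing were counted by lists. Of 11 fibrillar procollagen genes, 9 were fitted higher and 2 lower in DTR tendons, with a median log2 fold change of 0.39 against 0.00816 over all genes tested. By sign, 51.5% of all genes were fitted higher. None of the 11 was called by edgeR, and 6 were higher at an unadjusted p under 0.05, where 5.52% of all genes were. DESeq2 called 3 higher, where it called 1.12% of all genes higher. The highest were *Col5a3* at 0.87 and *Col24a1* at 0.76, and the lowest *Col2a1* at -0.28 and *Col11a2* at -0.15. The collagen I genes *Col1a1* and *Col1a2* were both at 0.32 and *Col3a1* at 0.54, beside 0.16 for *Adamts2* and 0.19 for *Bmp1*. Of these collagen genes, a ratio was tested for *Col1a1* alone, with the values given above. Of 14 tested genes for other substrates of the tolloid proteinases, 11 were fitted higher and 3 lower (median 0.26). None was called by edgeR and 2 were called higher by DESeq2, where the share over all genes was 1.12%. The 2 called were *Ogn*, the osteoglycin gene, at 0.83 and *Lox*, the lysyl oxidase gene, at 0.66. The lowest were *Col7a1* at -0.42 and the BMP antagonist gene *Chrd* at -0.0516. *Dspp*, a dentin gene, had at most 3 raw counts and was not tested.

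The proprotein convertases, which remove the prodomains of BMP1 and the ADAMTS proteinases, had a median of 0.00441, with 2 genes fitted higher and 2 lower. *Furin* averaged 4516 ± 673 normalized counts in WT against 4559 ± 1084 in DTR tendons (SD, n = 3 each), with a log2 fold change of 0.0134 (standard error 0.19). *Pcsk5* was highest at 0.50 (standard error 0.21, edgeR adjusted p = 0.457), and *Pcsk6* and *Pcsk7* were at -0.00459 and -0.0754. Of 6 tested genes for proteins that bind or inhibit the proteinases, 5 were fitted higher and 1 lower. DESeq2 called 2 of them higher, where the share over all genes was 1.12%. The 2 called were *Thbs1*, for thrombospondin 1, at 0.77 and *Postn*, for periostin, which binds BMP1 in the matrix, at 0.66. *Fn1*, for fibronectin, was at 0.37 (standard error 0.25), *Timp3*, for a metalloproteinase inhibitor, at -0.0990 and the BMP modulator gene *Twsg1* at 0.0124. *A2m*, which encodes the broad protease inhibitor alpha-2-macroglobulin, had 3 to 33 raw counts and was not tested.

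ADAMTS3 acts on VEGF-C together with CCBE1. Of 4 other genes listed around VEGF-C, none was called or had an unadjusted p under 0.05 in edgeR's test. *Ccbe1* was at 0.32, the receptor gene *Flt4* at 0.0841, *Vegfc* at -0.0755 and *Vegfd* at -0.0813. The meprin genes *Mep1a* and *Mep1b*, whose products can also cut procollagen, had at most 4 raw counts in any library and were not tested.

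**Figure D5:**
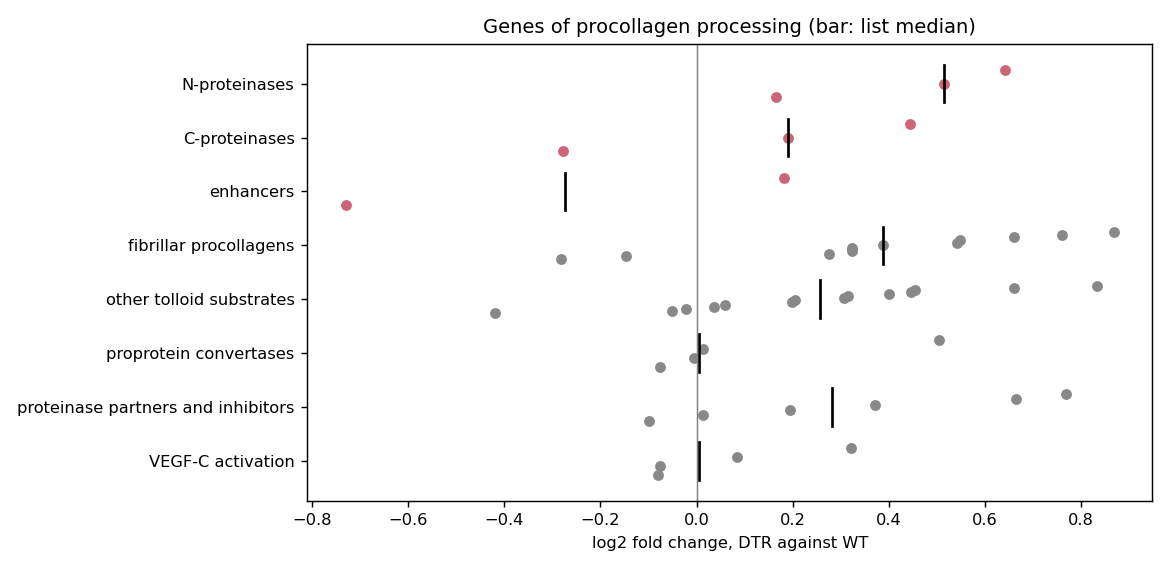
Log2 fold change of DTR over WT (horizontal axis) of each tested gene of procollagen processing, with 1 point per gene, in 8 lists (vertical axis), with the 8 genes of the opening in red and a bar at each list's median. The fibrillar procollagens have a median of 0.39 and the convertases one of 0.00441, and Pcolce2 is the lowest point of all lists at -0.73.

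RefSeq promoters, of 250 bases before to 50 after the start of the gene on GRCm38.p6, matched 7 of the 8 genes, all but *Bmp1*. The promoters of *Adamts14* and *Pcolce2* are shown because these were the genes with the lowest p among those fitted higher and those fitted lower. Capitals mark each GC box (GGGCGG, or CCGCCC on the other strand) and each E-box (CANNTG, the motif class of SCX and other basic helix-loop-helix factors).
Adamts14: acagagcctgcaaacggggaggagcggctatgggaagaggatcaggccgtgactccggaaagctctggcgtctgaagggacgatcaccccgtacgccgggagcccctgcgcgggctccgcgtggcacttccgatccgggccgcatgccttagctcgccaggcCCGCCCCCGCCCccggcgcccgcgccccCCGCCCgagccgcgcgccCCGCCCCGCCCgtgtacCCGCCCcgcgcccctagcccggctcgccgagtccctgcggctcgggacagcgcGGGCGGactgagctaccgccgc
Pcolce2: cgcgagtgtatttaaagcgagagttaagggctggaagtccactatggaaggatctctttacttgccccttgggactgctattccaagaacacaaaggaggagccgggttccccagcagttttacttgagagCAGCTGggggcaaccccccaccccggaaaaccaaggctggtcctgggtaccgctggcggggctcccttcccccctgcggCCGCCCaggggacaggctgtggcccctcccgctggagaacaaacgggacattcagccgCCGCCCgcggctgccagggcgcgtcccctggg
The window of *Adamts14* is chr10:61273370-61273669 on the minus strand, and that of *Pcolce2* is chr9:95637378-95637677 on the plus strand. *Adamts14* held 7 GC boxes, some of them overlapping, and no E-box, whereas *Pcolce2* held 2 GC boxes and 1 E-box. Over 32817 RefSeq promoters of this length, 35.6% held a GC box and 72.3% an E-box. The count of E-boxes was 0 in *Adamts3* and *Tll2*, 1 in *Tll1*, 3 in *Adamts2* and 7 in *Pcolce*. The CCAAT box was found in *Tll1* and *Tll2* and in 37.4% of all promoters. The TATA box (searched as TATAAA) was in none of the 7 and in 13.6% of all promoters. The AP-1 site (searched as TGANTCA) was in none of the 7 and in 7.81%, and the SMAD box (searched as GTCTAGAC) in none of the 7 and in 0.213%. Both strands were searched for each motif, and a match describes the letters of the window only.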

How the data were processed

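Total RNA of 200 ng per FDL tendon was sequenced by the authors in 3 DTR and 3 WT libraries. Single-end reads were cleaned with FastP and assigned to genes with featureCounts, and the deposited table holds raw counts. Replicate numbers and genotypes came from the labels. A normalized table, a signal that the authors deposited beside it, holds those counts over each library's size factor (0.973 to 1.06). The submitters' processing notes name DESeq2 1.22.1. The aligner, build, annotation and strand setting are not given in the sources used here, so overlapping and antisense genes are uncertain, and exon lengths and sequences came from GENCODE vM21 and RefSeq. Of the table's symbols, 92.8% matched GENCODE vM21.

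Counts were filtered with filterByExpr, scaled by TMM and fitted by genotype with the robust quasi-likelihood model of edgeR 4.0.16 (under R 4.3.3), from which fold changes, standard errors and 95% intervals were taken, with Benjamini-Hochberg adjustment over all 17496 genes and a threshold of 0.05. DESeq2 1.42.0 and limma 3.58.1 served as alternatives, and all were tested on simulated data. The raw count ratios had 0.5 added to each count. The number of animals, n = 3, limits the precision, and for the genes of lower counts counting error adds to it. It weighs most on *Tll2*, with 1 to 35 raw counts per library, and less on *Tll1*, *Adamts3* and *Adamts14*, the last with 710 to 1183. A chi-square test of counts between replicates of a group gave 36.6 to 189.8 per degree of freedom, so none was counted as a duplicate.

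The 8 genes and all lists were chosen with earlier results of these data known. The rule for named genes took these 8, the 2 highest and 2 lowest of each processing list with *Col1a1*, *Col1a2*, *Col3a1*, *Lox*, *Furin* and *Fn1*, and the 3 genes nearest in pattern to the 2 members of widest range. Motifs and the counts of genes closer in pattern were chosen after values were seen. So were *Adipoq*, *Fabp4*, *Lep*, *Cidec*, *Pi16*, *Dpp4*, *Ly6a*, *Ly6c1* and *Dcn*. Lists of keratinocyte, macrophage, endothelial, tendon cell, and cartilage and bone genes served as markers. Their summed levels were 0.00459% to 0.376%, 0.290% to 0.359%, 0.0634% to 0.0824%, 1.90% to 2.56% and 0.0147% to 0.0283% of counts. The tendon cell genes took 1.90% to 2.30% in WT and 2.27% to 2.56% in DTR libraries, which overlapped. Of these 10 genes, 8 were fitted higher in DTR tendons and 2 lower, where 51.5% of all genes were fitted higher. Keratinocyte genes took 0.376% and 0.234% in WT replicates 1 and 2 and 0.0416% or less elsewhere. The alternatives were DESeq2, limma-voom, RLE or library size normalization, other filters on low counts, a replicate block, each library left out, limma on the deposited normalized table after log2(value + 1), removal of muscle and keratinocyte genes, and the muscle level or the sex as a covariate.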

Additional observations from a re-analysis of the deposited data

How the results depend on the processing

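With only 3 animals per genotype, the number of genes called depended on the test and on 1 library. edgeR called 0 of the 8 genes, and 1 was called by DESeq2 (*Adamts14*) and 1 without DTR replicate 2 (*Pcolce2*), with a range of 0 to 1 over the fits that left out 1 library. Over all genes, edgeR called 0 higher and 0 lower (1918 at an unadjusted p under 0.05), DESeq2 called 197 higher and 269 lower, and edgeR without a filter on low counts called 45 higher and 38 lower. With 1 library left out, edgeR called 0 to 103 higher and 0 to 441 lower, where the highest counts came without DTR replicate 2. Same-numbered libraries did not deviate together (correlations of -0.25, -0.21 and -0.73 for replicates 1 to 3), and differently numbered ones ran from -0.49 to 0.60. Differences in muscle transcripts and sex enter these deviations too, so the correlations cannot show whether the numbers pair the samples. With the replicate block edgeR called 0 higher and 1 lower, and none of the 8 genes. Only DTR replicate 2 had a muscle level in the WT range, so the muscle covariate cannot be cleanly separated from genotype. The sign of *Adamts2* (-0.0189) and *Bmp1* (-0.085) turned with the muscle level as a covariate. That of *Tll2* turned in 3 of the 6 fits without 1 library, where it ran from -2.45 to 0.51. The difference in log2 ratio of *Pcolce* to *Col1a1* ran from -0.27 to 0.0288 and turned without DTR replicate 1. *Adamts3*, *Adamts14*, *Tll1*, *Pcolce* and *Pcolce2* kept their direction in all 17 alternatives. With sex as a covariate, *Adamts14* was at 0.48 and *Pcolce2* at -0.90. The causes were not tested.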
